A study of Drosophila melanogaster with 12 samples.

Results

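The proteasome subunit genes of the fly head were described on 12 arrays covering a light/dark day and the following day in constant darkness. Members were all non-control probe sets annotated with 1 gene symbol that starts with Prosalpha, Prosbeta, Rpn or Rpt, with 1 probe set per gene (the one with the highest mean signal). This rule gave 39 genes of 10844 on the array: 26 canonical subunits and 13 paralogues, which carry a T or R after the number in their symbol. The canonical genes comprised 6 of the alpha ring, 6 of the beta ring, 4 ATPases of the base, 3 other base subunits and 7 lid subunits. Prosalpha1, Prosbeta1, Rpt1, Rpt6, Rpn9 and Rpn10 were not analysed here.

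RNA came from pooled heads of adult Drosophila melanogaster of the y w stock, a laboratory strain with mutations in the body colour gene yellow and the eye colour gene white. All flies had been kept in cycles of 12 h light and 12 h dark. The LD group was collected every 4 h over 1 more light/dark day (ZT4 to ZT24, counted from lights-on, n = 6), and the DD group over the next day in darkness (CT4 to CT24, n = 6). Each time point had 1 array, DD always followed LD, and both groups carried the same genotype; no source used here gives sex or age.

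The proteasome degrades proteins tagged with ubiquitin. Its core particle is a barrel of stacked rings, in which the alpha subunits form the gated entrance and the beta subunits hold the proteolytic sites, with beta2 cutting after basic and beta5 after hydrophobic residues. The regulatory particle consists of a base, whose Rpt ATPases unfold the substrate and thread it into the core, and a lid, whose Rpn11 removes the ubiquitin chain. Most subunits occur in all cells, while several fly paralogues, such as Prosalpha3T and Prosalpha6T, are known as testis-specific subunits.

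Values are RMA signals on a log2 scale, so a difference of 1 is a doubling of signal within the same probe set, and the levels of single genes are not ranked against each other; they are set only against the median signal of all probe sets, which differences in probe efficiency also affect. Correlations between arrays ranged from 0.956 to 0.995. The difference between 3′ and 5′ probe sets for control transcripts (actin, GAPDH and eIF-4a), a readout of how much 5′ sequence a labelled sample holds, was 3.45 at CT12, 3.12 at ZT4 and 2.64 at CT4, against 1.69 to 2.2 on the other 9 arrays. Head markers were present: the 12 photoreceptor and neuron markers had a median signal of 7.01, against 5.0 over all probe sets, with Arr2, a photoreceptor arrestin, at 12.1 and the neuronal gene elav among 2 below the overall median, at 3.32. The listed gene repo is a marker of glia. The median deviation of the 12 genes from their means was lowest at CT12, at -0.29. Markers of other tissues also moved between arrays. The 17 male accessory gland markers stood at 2.01 at CT12 and 1.12 at CT4, with the other arrays at or below 0.05. The 30 midgut markers were highest at ZT12 (0.97) and CT12 (0.78), the 24 testis markers at CT12 (0.24) and the 11 fat body and female head markers lowest at CT12 (-0.51). The 18 thoracic muscle markers ranged from -0.46 to 0.07 in LD and from -0.06 to 0.51 in DD, while the 19 ovary and eggshell markers stayed between -0.09 and 0.05. The 8 core clock genes ranged from -0.28 to 0.22 in LD and from -0.20 to 0.21 in DD. In whole heads, fewer cells of a type and less RNA per cell cannot be told apart.

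The canonical subunits were low together at ZT4 and CT12. Their median deviation from their own 12-array means was -0.35 at ZT4 and -0.44 at CT12, and lay between -0.03 and 0.26 on the other 10 arrays. No canonical subunit was above its mean at CT12 and 5 of 26 were at ZT4, where 52.5% and 48.3% of all probe sets were above theirs. ZT4 and CT12 were the 2 lowest of the 12 arrays for 15 of 26 canonical subunits and for 0 of 13 paralogues, beside 10.7% of all probe sets and 17.3% of those above the median signal. CT12 alone was the lowest array for 15 of 26 canonical subunits and 1 of 13 paralogues, against 15.6% of all probe sets and 1578 of the 6983 above the median signal. Of the 1490 probe sets with ZT4 and CT12 lowest, 1208 were above the median signal. Of the 2177 with CT12 lowest, 1578 were above it. Both features were thus rarer among probe sets below the median signal, where 10 of 13 paralogues lie. These counts are descriptions: single arrays have no replicate, so the level of 1 time point cannot be tested against its own error. The same 2 arrays had the highest 3′ minus 5′ control signal, whose part in the pattern was not tested; at CT4, the third highest, the canonical median was 0.11 above the gene means.

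**Figure D1:**
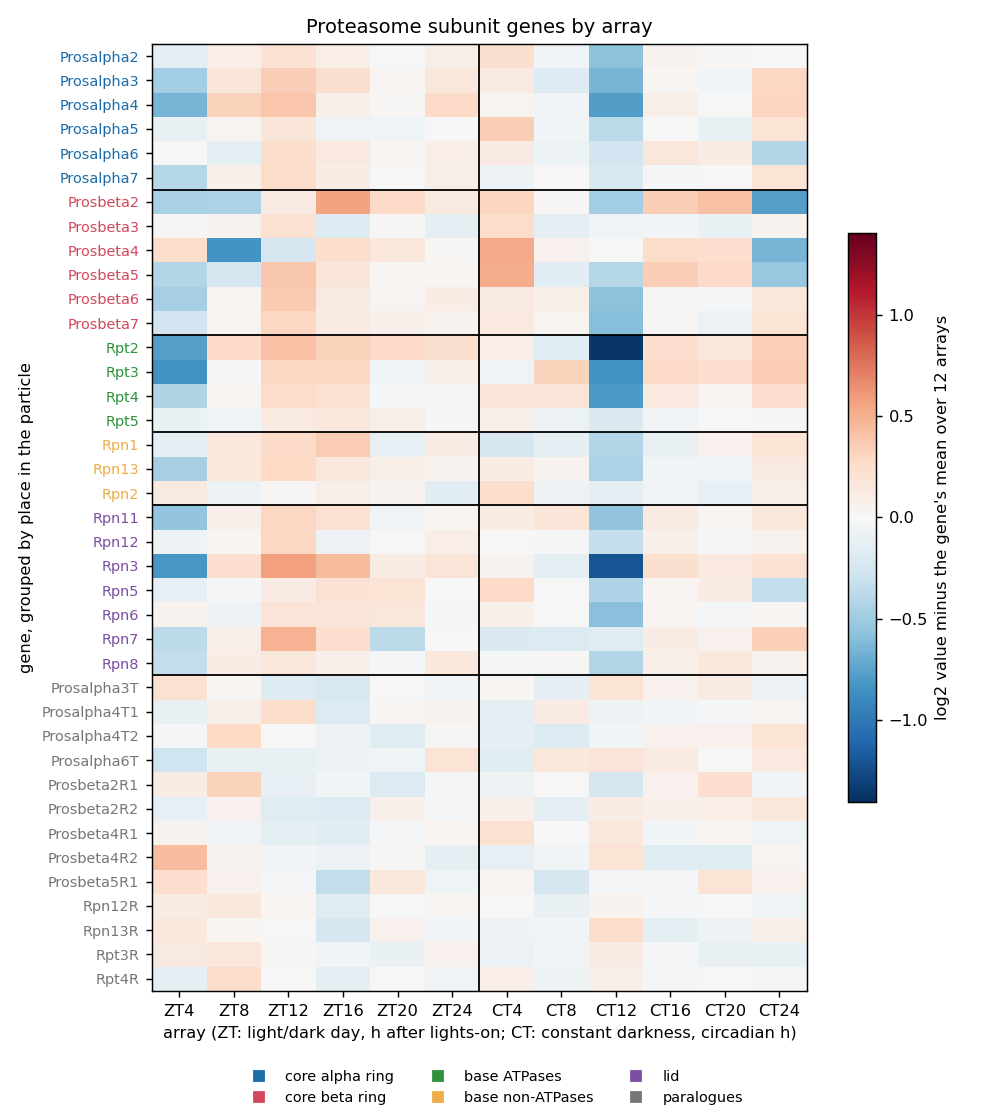
Log2 deviation of each of the 39 genes (rows, coloured and divided by place in the particle) from its own mean over the 12 arrays (columns; ZT is the light/dark day and CT constant darkness, in h). The columns ZT4 and CT12 are blue over most canonical subunits and mostly pale over the 13 paralogues, and Prosbeta2, Prosbeta4 and Prosbeta5 are also blue at CT24.

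The contrast of ZT4 and CT12 with the 9 arrays other than ZT4, CT4 and CT12 was calculated for each gene. The canonical median was -0.43 at ZT4 and -0.51 at CT12, compared with -0.01 and 0.01 over all probe sets, and 0.02 at CT4, compared with -0.02. For probe sets above the median signal the medians were -0.06 at ZT4, -0.06 at CT12 and -0.04 at CT4. Below the 9-array mean were 23 of 26 canonical subunits at ZT4, 25 at CT12 and 10 at CT4. Of all 13966 probe sets, 7232, 6666 and 7836 were below theirs. Of the 6983 above the median signal, these counts were 4212, 4047 and 4081. On those 9 arrays the canonical genes varied little more than other genes, with a median range of 0.40 against 0.36 over all probe sets, whereas over 12 arrays their median range was 0.82 against 0.48.

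**Figure D2:**
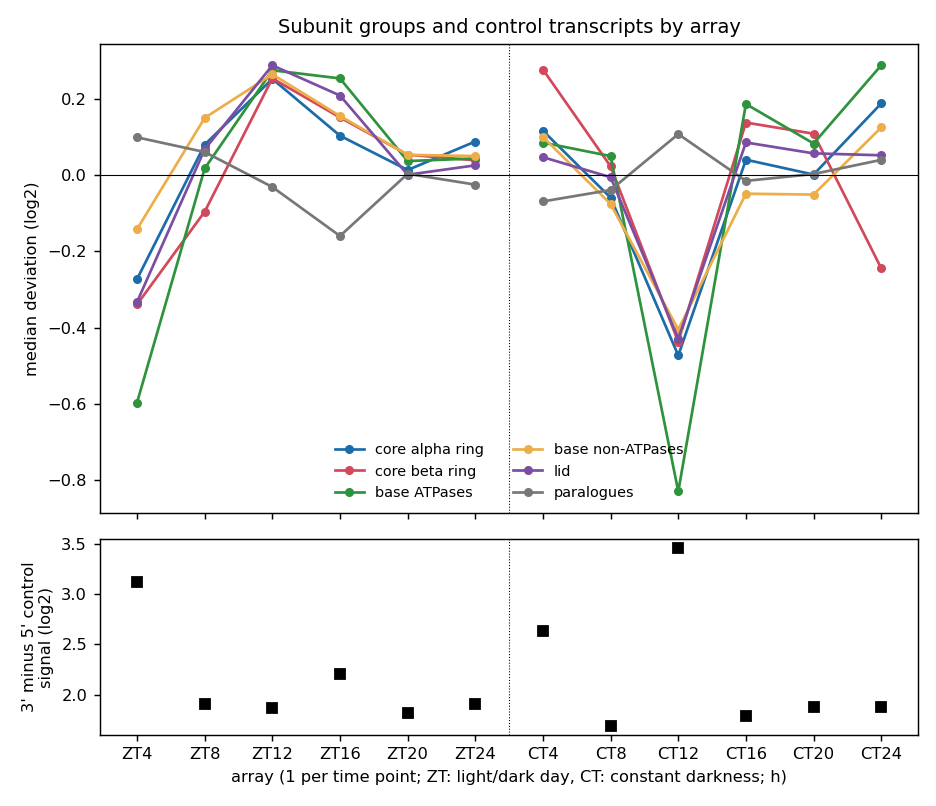
Median log2 deviation from the gene means in each subunit group (top, 1 point per array) and the 3′ minus 5′ signal of control transcripts (bottom, log2) across the 12 arrays. All 5 canonical groups reach their lowest point at CT12, the base ATPases lowest of all at -0.83, and the paralogues are highest there at 0.11.

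The base ATPases had the largest contrast of the groups, with a median of -0.77 at ZT4 and -0.98 at CT12, and all 4 had these arrays as their 2 lowest. Rpt2, which in yeast helps to open the gate of the core, had 5.67 as its lowest LD value, a median of 6.71 and a highest value of 6.85. In DD its lowest value was 5.08, its median 6.56 and its highest 6.78. The lowest values were those of ZT4 and CT12, and the other 10 arrays lay between 6.27 and 6.85, so that signal at CT12 was 0.334 times and at ZT4 0.499 times the mean of the 9 arrays. Rpt3, another ATPase of the ring, stood at 5.03 on both arrays and between 5.81 and 6.24 on the other 10, which is 0.484 times the 9-array mean in each case. For Rpt4 the value was 5.71 at CT12 and 6.10 at ZT4, against 6.48 to 6.77 on the 9 other arrays. Rpt5, which like Rpt2 contacts the core, showed the same order with a smaller span: 7.0 at CT12 and 7.10 at ZT4, against 7.12 to 7.35.

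The lid subunits had a median contrast of -0.42 at ZT4 and -0.50 at CT12. Rpn3, a structural lid subunit, ran from 6.74 at ZT4 to 8.12 at ZT12 in LD with a median of 7.76. In DD it ran from 6.35 at CT12 to 7.78 at CT16 with a median of 7.64. With a range of 1.77 it varied most of all members, and its signal was 0.373 times the 9-array mean at CT12 and 0.490 times at ZT4. Rpn11, the deubiquitinase of the lid, was at 6.37 on both arrays and at 6.88 or more on the others. Its partner Rpn8 was at 4.66 at CT12 and 4.74 at ZT4, and at 5.06 or more elsewhere. Rpn6, which in yeast clamps the lid to the core, was low on only 1 of the 2 arrays: it was at 6.36 at CT12 but at 7.0 at ZT4, inside its range of 6.88 to 7.13 on the 9 other arrays. Rpn7 differed again, with 6.70 at ZT4, 6.71 at ZT20 and 6.90 at CT12, and its highest value, 7.56, at ZT12. Rpn12 was lowest at CT12 (7.37) and Rpn5 was low both there (6.75) and at CT24 (6.83).

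Among the other base subunits, Rpn13, a ubiquitin receptor, was at 7.21 at ZT4 and 7.24 at CT12 and between 7.63 and 7.96 on the other 10 arrays. Rpn1, the scaffold to which ubiquitin shuttle factors bind, was lowest at CT12 (6.31), followed by CT4 (6.49) and ZT4 (6.58), with 7.07 at ZT16 as its highest value. Rpn2, the companion scaffold of Rpn1, stayed within 0.41 over all 12 arrays and stood above its 9-array mean at ZT4, by 0.15.

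In the alpha ring 5 of 6 genes had ZT4 and CT12 as their 2 lowest arrays, and the median contrasts were -0.34 and -0.51. Prosalpha4 was at 5.58 at CT12 and 5.71 at ZT4, where the other 10 arrays lay between 6.31 and 6.75, so its signal was 0.522 and 0.571 times the 9-array mean. Prosalpha3 had 6.63 at CT12 and 6.80 at ZT4, with 7.10 to 7.63 on the 9 other arrays. Prosalpha2 was low at CT12 (8.55) and closer to the rest at ZT4 (8.98, against 9.06 to 9.33). For Prosalpha5 and Prosalpha7 the contrasts at CT12 were -0.39 and -0.29. Prosalpha6 was the exception, with its lowest value at CT24 (6.86) and 7.27 at ZT4 against a 9-array mean of 7.28.

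The beta ring was divided. Prosbeta6 and Prosbeta7, which are non-catalytic, followed the common pattern: Prosbeta6 was at 7.67 at CT12 and 7.78 at ZT4 and at 8.23 or more elsewhere, and Prosbeta7 was at 6.72 and 7.04 and at 7.23 or more elsewhere. Prosbeta2, the trypsin-like subunit, was low on 4 arrays, with 7.33 at CT24, 7.62 at CT12, 7.64 at ZT4 and 7.65 at ZT8, and was highest at ZT16 (8.66). Its LD median was 8.23 and its DD median 8.26. Prosbeta5, the chymotrypsin-like subunit, was lowest at CT24 (6.76), ZT4 (6.88) and CT12 (6.89) and highest at CT4 (7.81), with medians of 7.31 in LD and 7.34 in DD. Prosbeta4, which carries no active site, ran from 7.44 at ZT8 to 8.53 at ZT16 in LD, with a median of 8.36. In DD it ran from 7.62 at CT24 to 8.80 at CT4, with a median of 8.42, and it was not low at ZT4 (8.52) or CT12 (8.27). Prosbeta3 stayed within 0.44 over the whole course. As a result the beta ring kept a median range of 0.65 on the 9 arrays, against 0.36 in the alpha ring. Prosbeta2, Prosbeta4, Prosbeta5, Prosalpha6 and Rpn5, which share the low value at CT24, were picked out after their values were seen.

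**Figure D3:**
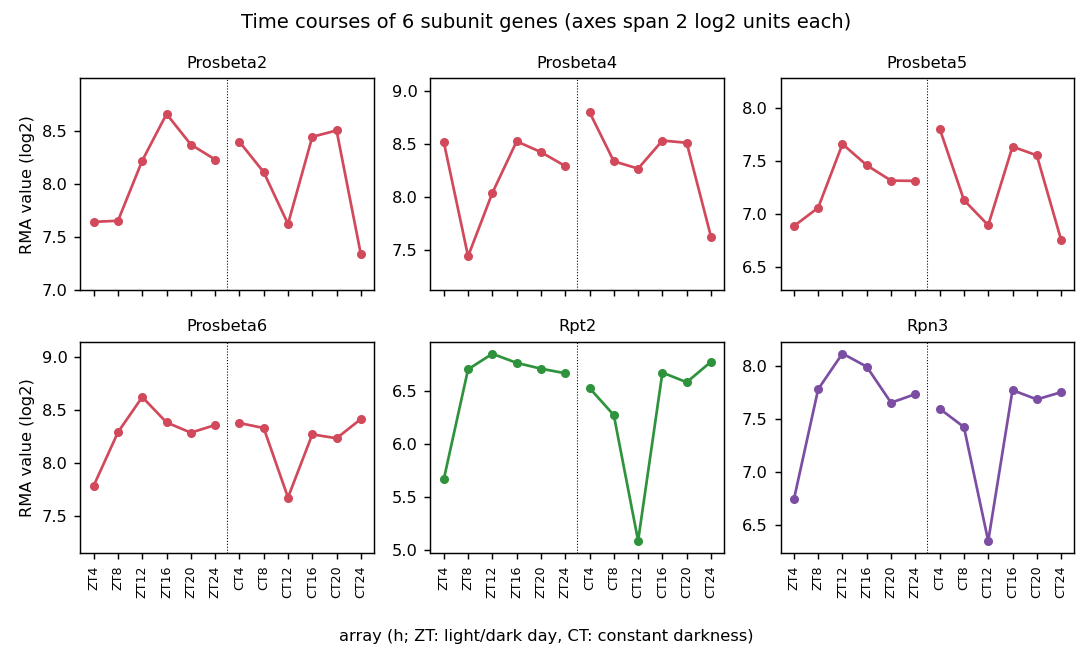
RMA signal (log2) of 6 subunit genes over the 12 arrays, each panel spanning 2 log2 units, with points for single arrays. Prosbeta6, Rpt2 and Rpn3 are low at ZT4 and CT12, whereas Prosbeta4 is lowest at ZT8 (7.44) and CT24 (7.62).

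The contrasts at ZT4 and CT12 went together across the 26 canonical genes (Pearson's r = 0.85, Spearman's rho = 0.81, a description across genes that share the 2 arrays and the same 9-array mean). The contrast at CT12 had r = 0.06 and rho = 0.07 with mean signal over the 9 arrays. With the length of the gene in the RefSeq table it had r = -0.02 and rho = -0.27. These correlations were not planned and not tested, and the place of the probes in the gene was not used. Only 2 members had a second probe set, with lower mean signals (5.31 for Prosbeta6 and 4.17 for Prosalpha7), and neither of these showed the pattern. The second probe set of Prosbeta6 was highest at CT12 (5.78) and ZT4 (5.66), the opposite order to the probe set described above. That of Prosalpha7 stayed between 4.01 and 4.32, with its highest value at CT12.

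**Figure D4:**
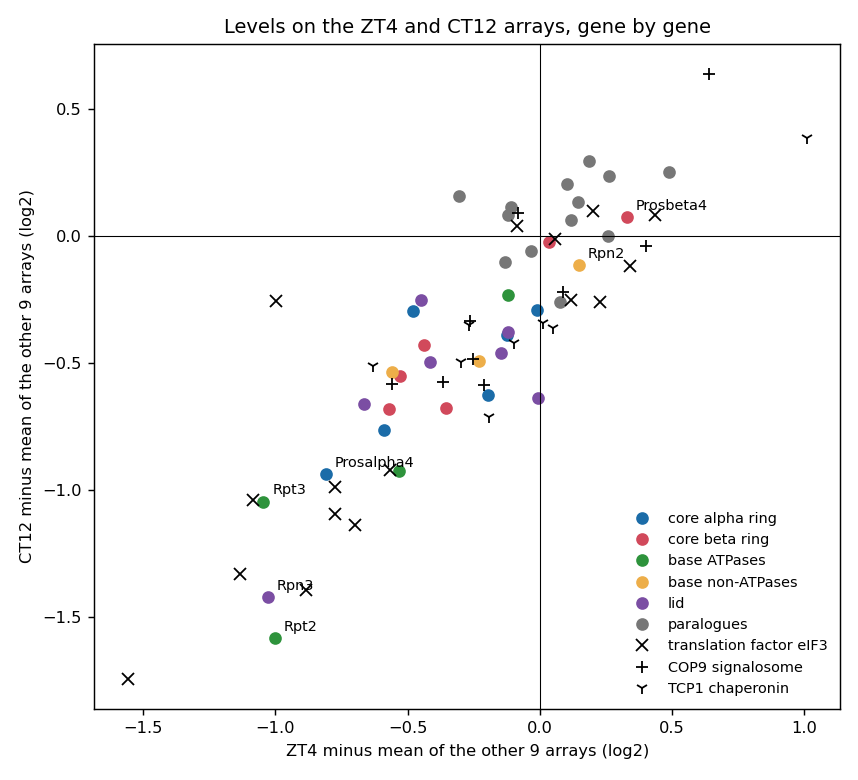
Difference of the ZT4 array (x axis) and of the CT12 array (y axis) from the mean of the 9 arrays other than ZT4, CT4 and CT12, in log2, with 1 point per gene for the 39 proteasome genes and for 3 other complexes. Rpt2 (-1.0, -1.58) and Rpn3 (-1.03, -1.42) lie farthest to the lower left of the proteasome genes, the paralogues lie around 0, and many eIF3 subunits lie among the canonical proteasome genes.

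As a group, the paralogues did not share the low values of the canonical subunits at ZT4 and CT12. Their mean signals were below the median of all probe sets in 10 of 13 genes and exceeded it slightly in Prosalpha4T2 (5.60), Prosbeta2R2 (5.59) and Prosbeta2R1 (5.0); none of the canonical subunits was below it. Signals this low may lie near background, which the deposited values do not record. ZT4 and CT12 were also less often the 2 lowest arrays among probe sets below the median signal. The part of signal level in the difference between the 2 groups was not tested. Ranges over 12 arrays were 0.26 to 0.60, against 0.36 to 1.77 in the canonical group. The median contrast of the paralogues was 0.10 at ZT4 and 0.11 at CT12. Prosbeta4R2 had its highest value at ZT4 (3.36, against 2.76 to 3.12 on the other arrays), Rpn13R was highest at CT12 (4.31) and Prosbeta2R1 was lowest there (4.76).

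All 13 paralogues were below their own mean at ZT16, where 44.8% of all probe sets were above theirs, and ZT16 was the lowest array for 8 of 13, against 9.9% overall. The paralogue median deviation was lowest at ZT16 (-0.16) and highest at CT12 (0.11). The testis markers had their lowest and highest medians on the same 2 arrays (-0.15 and 0.24), with no gene in both lists. So did the male accessory gland markers (-0.64 and 2.01). At ZT4 the paralogue median was 0.10 and the testis marker median -0.03. The part of RNA from testis or other tissues in the paralogue values was not tested. Prosalpha3T ranged from 3.28 at ZT16 to 3.72 at ZT4, Prosalpha4T1 from 3.47 at ZT16 to 3.91 at ZT12, and Prosbeta5R1 from 3.82 at ZT16 to 4.39 at ZT4. The smallest ranges were those of Rpt3R (0.26), Rpn12R (0.32) and Prosbeta2R2 (0.33), followed by Prosbeta4R1 (0.38) and Rpt4R (0.40).

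Constant darkness was compared with light/dark in a limma fit over all 13966 probe sets that also held a 24-h cosine curve. After Benjamini-Hochberg adjustment 0 of 39 members were higher and 0 were lower in DD, with adjusted p = 0.999 for every member. Overall 0.0573% of probe sets were higher and 0.0286% lower at an adjusted p under 0.05. At an unadjusted p under 0.05 there were 0 of 39 members, against 4.41% of probe sets. The LD and DD values overlapped in all 39 genes. Differences ranged from -0.24 to 0.15 with standard errors of 0.06 to 0.28. The unadjusted 95% intervals reached down to 0.554-fold (Rpt2) and up to 1.54-fold (Prosbeta4). They were narrower for members with smaller standard errors, such as Rpt5 (0.860-fold to 1.05-fold). With 6 arrays a day, a change within a gene's own interval could have gone undetected.

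The canonical subunits had a median difference of -0.07, with 20 of 26 below 0, beside a median of 0 and 50% below 0 over all probe sets. This count depended on which of the low arrays were kept. Without CT12 alone, which leaves the low ZT4 array in LD, the median was 0.02 and 8 of 26 were below 0. Without ZT4, CT4 and CT12 together the count was 21 of 26 with a median of -0.07, against 48.9% of probe sets. The alpha ring had a median of -0.12, the beta ring -0.03, the base ATPases -0.04, the other base subunits -0.08 and the lid -0.09, whereas the paralogues had 0.00 with 6 of 13 below 0. Of the muscle markers, 16 of 18 had a difference above 0 with a median of 0.64. With their median score as a covariate, the canonical median was -0.24 with 23 of 26 below 0, and 3 of 13 paralogues were below 0. No member passed in that fit at an adjusted p under 0.05 (lowest 0.531 in limma). The score itself was mostly higher in DD (-0.46 to 0.07 in LD, -0.06 to 0.51 in DD), so this fit separates the day from the score poorly. For this fit and the fit without CT12, no share of all probe sets below 0 is given. Their counts below 0 are therefore not read as results about the members.

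Rpn1 was the canonical subunit with the smallest p for this difference. Its LD values ran from 6.58 to 7.07 with a median of 6.84, and its DD values from 6.31 to 6.91 with a median of 6.61. The groups overlapped, DD was higher at 2 of 6 clock times, and the difference was -0.20 ± 0.11 (SE; unadjusted p = 0.102 in limma), or -0.39 with the muscle score as a covariate (unadjusted p = 0.0348). Rpt2 and Rpn3 had differences of -0.24 ± 0.28 and -0.24 ± 0.27, which were 0.02 and 0.01 without CT12 and -0.64 and -0.68 with the muscle score. All values with the muscle score, that of Rpn1 included, come from the fit that separates the day from the score poorly. In the alpha ring Prosalpha6 and Prosalpha2 had differences of -0.12 ± 0.11 and -0.11 ± 0.12. In the beta ring Prosbeta4 had 0.14 ± 0.22 and Prosbeta7 -0.10 ± 0.13, which were -0.02 without ZT8 and 0.02 without CT12. For Rpt5 the difference was -0.08 ± 0.06, for Rpn13 -0.08 ± 0.14 (0.02 without CT12), for Rpn6 -0.16 ± 0.11 and for Rpn5 -0.13 ± 0.12.

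The 2 paralogues nearest to a difference had higher means in DD. Prosbeta2R2 ran from 5.42 to 5.66 in LD with a median of 5.52 and from 5.45 to 5.74 in DD with a median of 5.68, and differed by 0.12 ± 0.07 (unadjusted p = 0.0934). Prosalpha6T ran from 3.54 to 4.01 in LD and from 3.67 to 4.00 in DD, and differed by 0.15 ± 0.08 (unadjusted p = 0.103). DD was higher at 5 of 6 clock times for both, and their ranges overlapped. With the muscle score as a covariate the differences were 0.22 and 0.00.

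**Figure D5:**
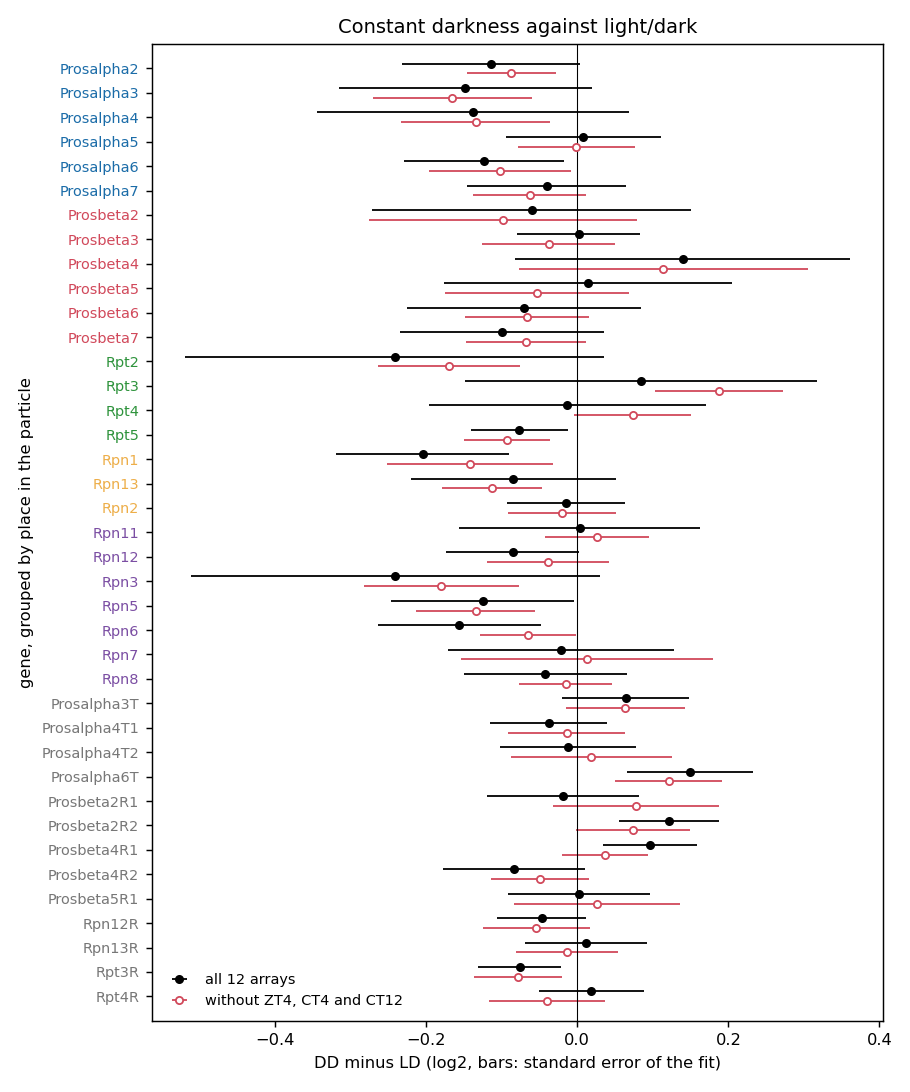
DD minus LD (log2) of the 39 genes with the standard error of the fit, for all 12 arrays (filled) and for the 9 arrays left without ZT4, CT4 and CT12 (open). All 12-array values lie between -0.24 and 0.15, and the error bars of Rpt2 (0.28) and Rpn3 (0.27) are the widest of the base and lid.

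A 24-h rhythm common to both days was not detected. None of the 39 members passed at an adjusted p under 0.05 (lowest 0.994 in limma), beside 0.00716% of probe sets, and 0 of 39 had an unadjusted p under 0.05, beside 3.34%. Fitted amplitudes, from mean to peak, were 0.02 to 0.32, with a median of 0.08 in the canonical group and 0.06 in the paralogues against 0.07 over all probe sets. Prosbeta2 had the largest amplitude, 0.32 ± 0.15 with a fitted peak at 17.5 h (unadjusted p = 0.15), followed in p by Rpt3R (0.07 ± 0.04) and Prosbeta4R2 (0.10 ± 0.07). The low arrays of the canonical group fell at different clock times on the 2 days, 4 h in LD and 12 h in DD. At CT4 and ZT12 the same genes were above their means, in 20 and 25 of 26 cases. Of all probe sets, 43.4% and 50.4% were above theirs on these arrays. ZT12 was the highest array for 15 of 26 canonical subunits, against 8.68% of probe sets.

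Without ZT4, CT4 and CT12 the rhythm test again passed 0 of 39 members and 0% of probe sets at an adjusted p under 0.05. At an unadjusted p under 0.05 it gave 2 of 39, against 8.75% of probe sets: Prosbeta2 (amplitude 0.49, peak 16.2 h, unadjusted p = 0.0207 in limma) and Prosbeta5 (amplitude 0.36, peak 15.4 h, unadjusted p = 0.0147). In the same 9 arrays DD minus LD passed no member, with a lowest adjusted p of 0.757 (Rpt3), beside 0.115% of probe sets. At an unadjusted p under 0.05 it passed 0 of 39, beside 6.71%.

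The effect of light was asked by comparing LD minus DD at 4, 8 and 12 h, during or at the end of the light phase of LD, with LD minus DD at 16, 20 and 24 h. None of the 39 members passed at an adjusted p under 0.05 (lowest 0.998 in limma) and neither did any probe set (0%). At an unadjusted p under 0.05 were 4 of 39, against 3.83% of probe sets. Prosbeta4, whose values are given above, was lower by this contrast (-0.66 ± 0.26, unadjusted p = 0.0380). Prosalpha4T2 was at 5.59, 5.88 and 5.61 at these LD times and at 5.47, 5.42 and 5.56 at the same DD times, and between 5.44 and 5.80 on the 6 arrays of the later times. Its contrast was 0.40 ± 0.14 (unadjusted p = 0.0269), and the values of the 3 LD times overlapped with the rest. Prosbeta2R1 and Prosbeta5R1 had contrasts of 0.38 ± 0.15 (unadjusted p = 0.0390) and 0.33 ± 0.14 (unadjusted p = 0.0450). The canonical median of this contrast was 0.13 and the paralogue median 0.09, against 0.02 over all probe sets.

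Other genes of the ubiquitin and proteasome pathway were taken from lists and did not all follow the canonical subunits. None of the 9 measured regulators and assembly factors, 14 ubiquitin and conjugation genes and 7 substrate delivery genes passed in DD minus LD or in the rhythm test at an adjusted p under 0.05. At an unadjusted p under 0.05 in DD minus LD were 0, 1 (slmb, an F-box protein) and 1 (TER94, the p97 segregase), with list medians of -0.07, -0.07 and 0.02, and in the rhythm test 0, 1 (slmb) and 0. The regulators had their highest median deviation at ZT4 (0.19). Pomp, the assembly chaperone of the core, was above its 9-array mean by 0.71 at both ZT4 and CT12, and Nedd8, a ubiquitin-like protein, by 1.57 and 1.25 and by 1.75 at CT4. REG, an alternative cap of the core, and Usp14, a deubiquitinase that binds Rpn1, were below theirs at CT12 (-0.58 and -0.65). The polyubiquitin genes Ubi-p63E and Ubi-p5E were below theirs at CT12 (-0.73 and -0.91) and at ZT4 (-0.42 and -0.63), but these were not their lowest arrays. Ubi-p63E was at 8.59 at ZT8, 8.74 at ZT12 and 8.75 at CT24, against 9.04 at CT12. Ubi-p5E was at 9.73, 9.91 and 9.94 on the same arrays, against 10.07 at CT12. The median contrast of the ubiquitin list was -0.23 at ZT4 and -0.23 at CT12, and that of substrate delivery was -0.37 and -0.19. These genes were named after their values were seen.

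Other complexes also had low values at ZT4 and CT12, the TCP1 chaperonin only in part. The 16 subunits of the translation factor eIF3 had median contrasts of -0.63 at ZT4 and -0.59 at CT12, and 7 of 16 had these arrays as their 2 lowest. The COP9 signalosome, which removes Nedd8 from cullins and is related in structure to the lid, had medians of -0.21 and -0.33 with 4 of 9. The TCP1 chaperonin, which folds actin and tubulin, had medians of -0.14 and -0.39 with 2 of 8. Beside these counts stand 10.7% of all probe sets and 17.3% of those above the median signal. At CT4 the TCP1 median was also low, at -0.32, against 0.02 in the canonical subunits and -0.02 over all probe sets. For TCP1 the DD minus LD median was -0.32, with 8 of 8 below 0. At an unadjusted p under 0.05 were 6 of 8, none of them past the adjusted threshold (lowest 0.459 in limma). COP9 and eIF3 had medians of -0.02 and -0.06, with 0 and 1 at an unadjusted p under 0.05 and 0 past the adjusted threshold. Whether the canonical proteasome genes differ from these complexes was not tested.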

How the data were processed

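RNA of sieved frozen heads received a biotin label, per the labels' protocols, and each time point had 1 Affymetrix array. The authors deposited log2 expression values, for which the submitters' processing notes name RMA; its version and the arrays it was run on together were not given in the sources used here. A shift common to most genes cannot be seen after RMA, which matches the arrays' distributions, and the values hold no detection call or depth. The number of arrays limits the precision.

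Groups and clock times came from the titles, and arrays were numbered by clock time, so equal numbers share a clock time and not animals. Of 14010 probe sets, 44 controls were left out and 13966 tested; 12443 had 1 symbol, 327 several and 1196 none, and all 39 members matched a RefSeq gene. Tests were run in limma 3.58.1 (R 4.3.3) with lmFit, eBayes and Benjamini-Hochberg adjustment over all probe sets at 0.05. DD minus LD and the 24-h rhythm (F test) came from a fit of regime, cosine and sine (8 residual degrees of freedom), and the light contrast from regime, a 6-level clock factor and an indicator for ZT4, ZT8 and ZT12 (4 residual degrees of freedom). P-values measure the scatter of single arrays around these models, which may be technical. The fits were also run on simulated data with independent noise for each gene and array. Such data hold no array on which many genes move together, so this run does not show how the tests behave here.

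The members and lists were chosen with earlier results of these data known. Named were every paralogue, the 2 members of each other subgroup with the largest range and the 2 with the smallest p for DD minus LD, and over all members the 3 smallest p in each test and the 3 largest differences in each direction; other members and pathway genes named were chosen after their values were seen. Lists were proteasome regulators and assembly, ubiquitin and conjugation, substrate delivery, COP9, eIF3, TCP1, core clock and the marker lists; listed genes that have no separate probe set are left out. Alternatives left out arrays singly or ZT4, CT4 and CT12 together, added the 3′ minus 5′ signal, the testis or the muscle score, centred or quantile-normalized arrays, used a variance trend, dim probe sets removed, the mean of all probe sets, clock time as a block, or 1 day alone. Promoter motifs were not analysed here.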

Additional observations from a re-analysis of the deposited data

Results flagged for a closer look

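Within each day, a gene was picked out where 1 array lay apart from the other 5 by more than Dixon's 95% critical value for 6 samples. Chance picks out about 5% of groups, or 1 in 20, if genes were independent, which these are not. Of 78 gene and day combinations, 21 were picked out: 7 of 39 in LD and 14 of 39 in DD, beside 11.0% and 10.5% of all probe sets and 13.0% and 12.8% of those above the median signal.

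In LD, 6 of 39 genes had a low ZT4 array, beside 4.92% of all probe sets and 8.15% of those above the median signal: Prosalpha4 at 5.71, Rpt2 at 5.67, Rpt3 at 5.03, Rpn13 at 7.21, Rpn3 at 6.74 and Rpn8 at 4.74. The remaining gene, the paralogue Prosbeta4R2, was high at ZT4, at 3.36.

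In DD, 13 of 39 genes had a low CT12 array, beside 3.46% of all probe sets and 6.23% of those above the median signal. In the core these were Prosalpha2 at 8.55, Prosalpha4 at 5.58, Prosbeta6 at 7.67 and Prosbeta7 at 6.72. In the base they were Rpt2 at 5.08, Rpt3 at 5.03, Rpt4 at 5.71 and Rpn13 at 7.24. In the lid they were Rpn11 at 6.37, Rpn12 at 7.37, Rpn3 at 6.35, Rpn6 at 6.36 and Rpn8 at 4.66. The paralogue Prosbeta2R2 was low at CT8, at 5.45. The 3′ minus 5′ control signal was 3.12 at ZT4 and 3.45 at CT12, and its part in these values was not tested.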

How the results depend on the processing

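The count of members at an adjusted p under 0.05 was 0 for DD minus LD, rhythm and light in every alternative run. At an unadjusted p under 0.05, DD minus LD gave 1 member after a further quantile normalization, 1 with clock time as a replicate block (no animals are paired) and 2 with the muscle score as a covariate; rhythm gave 2 without ZT4, CT4 and CT12 and 2 in the LD day alone; and light gave 7 without the 3 arrays. In the rhythm test 8.75% of all probe sets were under 0.05 without those 3 arrays. No share of all probe sets is given for the other settings, nor for light without the 3 arrays, so these counts are not read as results about the members. Leaving out 1 array at a time gave 0 to 1 for DD minus LD, 0 to 2 for rhythm and 0 to 7 for light, again with no such share. The canonical median of DD minus LD then ran from -0.13 to 0.02, and the count below 0 from 8 to 24, with 8 only without CT12. For these counts, too, no share of all probe sets is given. Of the 13 members whose difference is given, 8 kept their sign in all single omissions and 13 in the other alternatives that gave them a value (Prosalpha6T is too dim for the fit of probe sets above the median signal), but sizes moved with the muscle score: Prosalpha6T from 0.15 to 0.00, Rpt2 and Rpn3 from -0.24 to -0.64 and -0.68, Rpn1 from -0.20 to -0.39, and the canonical median from -0.07 to -0.24. In single omissions Prosbeta4 ran from -0.0176 to 0.333, Prosbeta7 from -0.182 to 0.0209, Rpt2 from -0.439 to 0.0238, Rpn13 from -0.203 to 0.0151 and Rpn3 from -0.433 to 0.0145. Chosen after seeing the data, centred arrays, a further quantile normalization and the mean of all probe sets gave 15, 12 and 13 canonical subunits with ZT4 and CT12 as the 2 lowest arrays. How far low signals stand above background is unknown.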
